A study of Caenorhabditis elegans with 12 samples.

Results

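The transcriptional response of wild-type first-stage larvae (L1) of Caenorhabditis elegans to tunicamycin was measured on 6 of the 12 arrays of the series, 3 from larvae kept in vehicle and 3 from larvae kept in the drug. All 22548 probe sets of the Affymetrix C. elegans array that are not control probe sets belong to the comparison, and 14709 of them, standing for 10844 genes, passed the filter on dim signals. The wild-type strain was N2. Eggs from hypochlorite-treated adults hatched on plates without bacteria, so every larva in both groups was unfed. The larvae were washed off 24 h after plating and rotated for 5 h in M9 buffer with DMSO (vehicle) or with tunicamycin in DMSO. The labels give the drug's dose as the number 5 and disagree on the unit, ug per mL in one field and ug per uL in another. The other 6 arrays came from manf-1(tm3603) mutants handled in the same way, 3 with vehicle and 3 with tunicamycin, and their values are given here only where they sit beside a wild-type result. All 12 arrays were fitted together, so the mutant arrays enter the spread behind each SE and p-value, except where a fit of the 6 wild-type arrays alone is named. RNA came from whole bodies. The labels do not say that the 3 arrays of a group came from separate cultures, so every p-value here measures the spread between these samples, which may be technical.

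Tunicamycin blocks the enzyme that starts the sugar chain later attached to asparagines of secretory proteins in the endoplasmic reticulum (ER). Unglycosylated proteins misfold there, and the cell answers with the unfolded protein response, in which the sensors IRE-1, PEK-1 (the worm PERK) and ATF-6 raise the transcription of chaperones, oxidoreductases, export coats and degradation factors, and IRE-1 splices the messenger of the transcription factor XBP-1. In C. elegans the BiP gene hsp-4 is the usual reporter of this response.

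The deposited log2 signals of the 6 wild-type arrays had medians between 3.96 and 4.05. A background limit of 3.34 was taken from 32 control probe sets for Bacillus and yeast transcripts, whose median signal was 2.23, and it is the 95th percentile of their signals. By rank correlation the arrays did not separate by treatment. The Spearman correlation of 2 arrays with the same treatment was 0.93 to 0.95 for vehicle and 0.92 to 0.95 for tunicamycin, against 0.91 to 0.96 between treatments. The 3′ minus 5′ signal difference, averaged over 4 worm control transcripts, each taken relative to its mean over all 12 arrays, was 0.16, -0.20 and 0.19 on the vehicle arrays numbered 1 to 3 and -0.07, -0.25 and 0.39 on the tunicamycin arrays. The arrays numbered 2 were the lowest in both wild-type groups, and also in both mutant groups (-0.87 and -0.27), so leading counts are given with and without the 4 arrays numbered 2. Most markers of the larval tissues were detected. Intestine markers exceeded the background limit on all 6 arrays for 11 of 13 genes, hypodermis for 11 of 14, body wall muscle for 12 of 12 and neurons for 13 of 14. Pharynx markers did so for 8 of 12, without ceh-22, phat-1, phat-2 and phat-3. Germline and adult markers did so for 4 of 14, with the yolk genes vit-2 and vit-5 not above the limit. In whole larvae, fewer cells of a type and less RNA per cell cannot be told apart.

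The response consisted mainly of rises. Of the 14709 probe sets, 53 were higher with tunicamycin (0.36%) and 5 were lower (0.034%) at an adjusted p under 0.05 in limma. The 53 rises ranged from 2.63-fold to 28.2-fold with a median of 5.10-fold, and 12 of them were under 4-fold, 32 between 4-fold and 8-fold and 9 at 8-fold or more. Their median signal went from 6.43 with vehicle to 8.91 with tunicamycin, so most began well above the background limit. The median change over all probe sets was -0.03 on the log2 scale.

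The counts changed with the threshold and with the arrays that were fitted. At an unadjusted p under 0.05, which a share of 0.05 would meet with no response, there were 1179 probe sets. Of these, 69 were at least 4-fold higher and 18 at least 4-fold lower, while at 2-fold the numbers were 433 and 349. Without the 4 arrays numbered 2, 34 were higher and 1 was lower, and in a fit of the 6 wild-type arrays alone 19 were higher and 1 was lower. In each of the 58 probe sets past the threshold the 3 treated arrays did not overlap the 3 vehicle arrays, while 5.43% of all probe sets were higher and 5.44% lower without overlap.

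Of the 53 higher probe sets 49 are annotated with a single gene, giving 42 genes, and 41 of these passed on the probe set used for the gene, the one with the highest mean signal (0.378% of the 10844 genes). On their used probe sets 2 genes were lower (0.0184%). The 42nd, erd-2.1, passed on its other probe set. Among 134 genes of 9 lists for the secretory pathway 19 rose, or 14.2%, and among the other 10710 genes 22 rose, or 0.205%. The lists were chosen with earlier results of these data known, so these shares describe the lists and are not a test. The secretory genes leaned upward as a group as well, with 114 of 134 above 0 and a median change of 0.62, beside 5203 of all 10844 genes above 0 and a median of -0.02. Without the arrays numbered 2 the secretory count was 12, and with the 6 wild-type arrays alone it was 7.

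**Figure D1:**
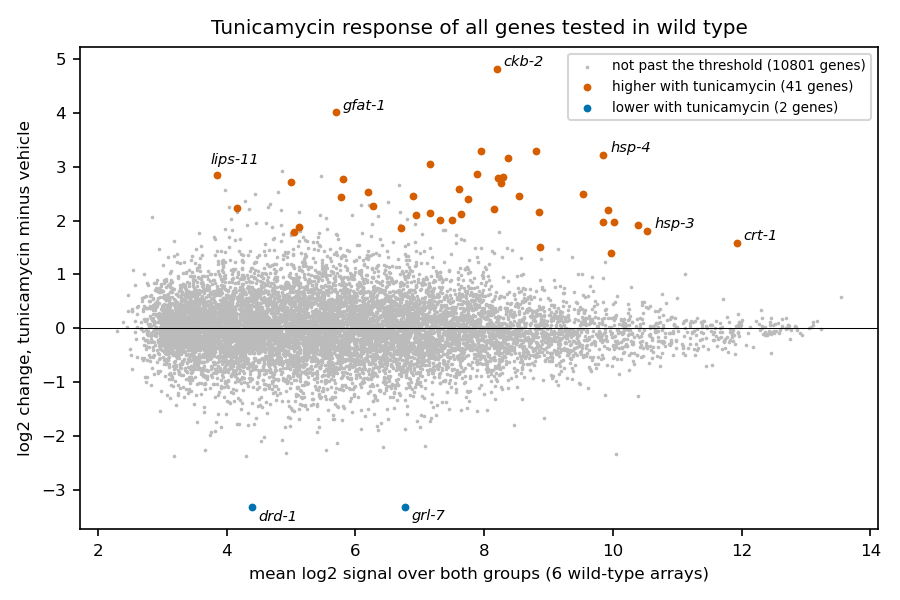
Log2 change with tunicamycin in wild-type larvae (y axis) against the mean log2 signal over the 6 wild-type arrays (x axis), 1 point per gene for 10844 genes. Orange points are the 41 genes higher and blue points the 2 genes lower at an adjusted p under 0.05 in limma, and the rises lie across the signal range, from lips-11 at the left to crt-1 at the right.

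Chaperones of the Hsp70, Hsp90 and DnaJ families, which hold unfolded chains in the ER lumen, rose in 6 of 12 genes measured, and 11 of 12 were above 0 with a median change of 1.89. The BiP gene hsp-4 had log2 signals of 8.68, 7.37 and 8.66 with vehicle and 11.53, 11.62 and 11.22 with tunicamycin. The groups lay well apart, with the lowest treated array above the highest vehicle array, and the change was 3.22 (SE 0.30, limma adjusted p = 0.000142), or 9.31-fold. The second BiP gene, hsp-3, had 9.57, 9.82 and 9.46 with vehicle and 11.63, 11.49 and 11.16 with tunicamycin. Its arrays were tight within each group and apart between them, and it rose by 1.81 (SE 0.19, limma adjusted p = 0.000345). Whether the probe sets of these close paralogues cross-hybridise was not tested.

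The same list held the ER Hsp90 gene enpl-1 (GRP94 in mammals), which rose by 2.15 (SE 0.34) on its used probe set while its other probe set changed by 0.56 (limma adjusted p = 0.759). The Hsp70-family gene T14G8.3 rose by 1.97. Among DnaJ cochaperones, which stimulate Hsp70 proteins, dnj-28 had 5.10, 3.66 and 4.51 with vehicle and 7.45, 7.45 and 6.69 with tunicamycin, a rise of 2.78 (SE 0.42, limma adjusted p = 0.00737). All 3 treated arrays stood above the highest vehicle array. The cochaperone dnj-7 rose by 2.46, while dnj-27 changed by 2.67 without passing (limma adjusted p = 0.12), and dnj-20 and dnj-18 stayed at 0.00 and -0.07. Without the arrays numbered 2 the list's count was 3, and in the fit of 6 arrays it was 2. A further Hsp70-family gene outside the list, stc-1, rose by 2.11 (SE 0.35).

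Protein disulfide isomerases, which form and rearrange disulfide bonds in the ER, had the highest median change of the 43 lists, 2.33, with 5 of 8 genes higher. For pdi-1 the signals were 6.73, 6.72 and 7.20 with vehicle and 10.12, 9.40 and 9.56 with tunicamycin, a rise of 2.81 (SE 0.37, limma adjusted p = 0.00209). For pdi-6 they were 6.44, 5.90 and 7.04 and then 10.12, 8.79 and 9.06, a rise of 2.86 (SE 0.50, limma adjusted p = 0.0187). Neither gene's groups overlapped, and the other probe set of each rose as well, by 2.29 for pdi-1 and 2.35 for pdi-6.

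The remaining rises in this list were 2.50 for pdi-3, 2.46 for C14B9.2 and 2.20 for pdi-2, whose other probe set changed by 1.22 (limma adjusted p = 0.139). The oxidase gene ero-1, which recharges these isomerases, changed by 1.34 (limma adjusted p = 0.39). ZK973.11 and F35G2.1 changed by 0.26 and -0.46. A thioredoxin-domain gene outside the list, txdc-12.1, had 6.24, 5.93 and 6.77 with vehicle and 9.29, 8.54 and 8.89 with tunicamycin. It rose by 2.60 (SE 0.34, limma adjusted p = 0.00209), a size in the range of the isomerases. The count of 5 was also 5 without the arrays numbered 2 and was 3 in the fit of 6 arrays.

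**Figure D2:**
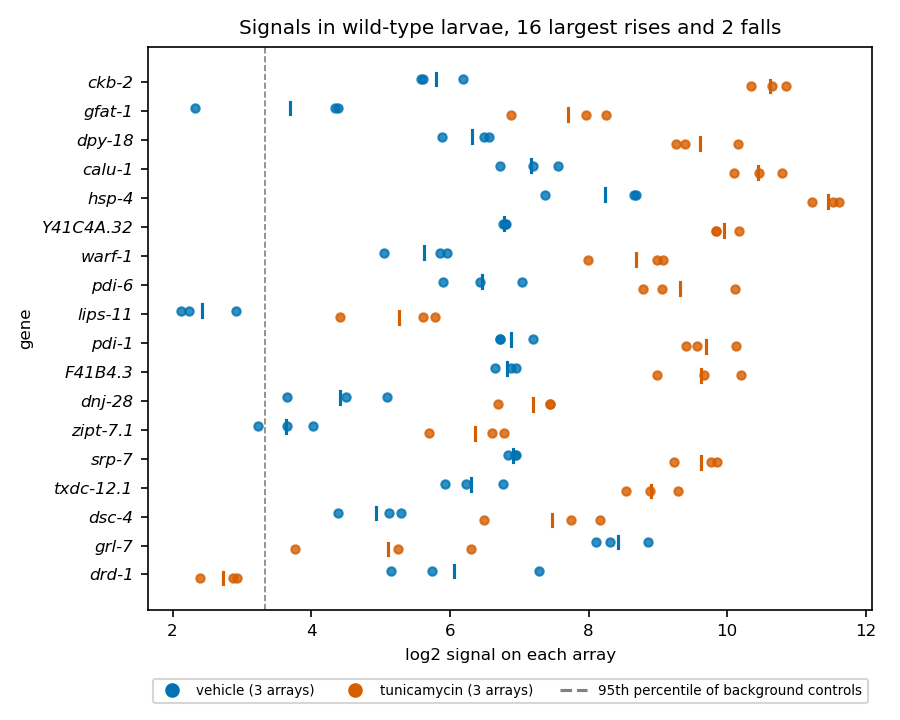
Log2 signal on each wild-type array (x axis) for 18 genes (y axis). They are the 16 with the largest rise among genes past the threshold, and the 2 genes lower on their used probe set. Blue points are the 3 vehicle arrays and orange points the 3 tunicamycin arrays, with ticks for group means and a dashed line at the background limit of 3.34. The groups do not overlap in any of the 18 genes, lips-11 lies below the line with vehicle, and drd-1 lies below it with tunicamycin.

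The lectin chaperones, which retain glycoproteins in the ER until they fold, changed unevenly. Calreticulin, crt-1, had a mean signal of 11.13 with vehicle and 12.72 with tunicamycin, a rise of 1.58 (SE 0.24, limma adjusted p = 0.00665). Its membrane-bound relative calnexin, cnx-1, changed by -0.11. The cargo lectin ile-1 (ERGIC-53 in mammals), which ferries glycoproteins out of the ER, rose by 2.02 (SE 0.40, limma adjusted p = 0.0477), close to the threshold, and by 2.11 on its other probe set. The glucosyltransferase uggt-1, which marks unfolded glycoproteins for another round, changed by 0.64 (limma adjusted p = 0.72). In all, 2 of 7 members rose, and 6 of 7 were above 0 with a median of 1.32.

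The pathway that tunicamycin blocks showed 1 rise among 21 genes for hexosamine synthesis, dolichol and N-glycosylation. This was gfat-1, the enzyme that commits fructose 6-phosphate to UDP-GlcNAc, the sugar donor used in the blocked step. Its signals were 2.33, 4.39 and 4.35 with vehicle and 8.25, 7.97 and 6.88 with tunicamycin. The vehicle array numbered 1 lay below the background limit and apart from the others, and the lowest treated array was still above every vehicle array. The rise of 4.01 (SE 0.53, limma adjusted p = 0.00235), or 16.1-fold, was 3.33, or 10.1-fold, without that array, when hsp-4 (3.44) and dpy-18 (3.42) were higher. The blocked enzyme's own gene, algn-7, changed by 2.05 and just missed the threshold (limma adjusted p = 0.0554). Subunits of the oligosaccharyltransferase, which transfers the finished chain, changed by less, with 1.13 for stt-3, 0.92 for ostb-1, 0.77 for ribo-1, 0.52 for ostd-1 and -0.23 for dad-1, none past the threshold. The median of the list was 0.46.

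ER-associated degradation, which draws misfolded proteins back to the cytosol for the proteasome, had 2 rises among 20 genes. They were the derlin cup-2, by 2.28 (SE 0.34, limma adjusted p = 0.00665), and ubxn-4, an ER-anchored UBX-domain gene, by 1.87 (SE 0.35, limma adjusted p = 0.0339). The adaptor sel-1 changed by 1.10 and the ubiquitin ligase sel-11 (HRD1 in yeast and mammals) by 0.38, neither past the threshold. The AAA ATPases cdc-48.1 and cdc-48.2, which pull substrates out, changed by 0.61 and 0.45. Although 18 of 20 genes were above 0, the median was 0.46. Downstream of them, 32 proteasome genes had a median change of 0.00 and none passed.

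At the entry to the pathway, subunits of the signal peptidase, which trims signal sequences, rose, and no subunit of the translocation channel passed. The catalytic subunit sec-11 rose by 2.41 (SE 0.42, limma adjusted p = 0.0175) and spcs-1 by 2.12 (SE 0.34, limma adjusted p = 0.00954). The remaining subunits spcs-3 and spcs-2 changed by 1.49 (limma adjusted p = 0.0523) and 0.97. The channel genes sec-61.A, sec-61.B and sec-61.G changed by -0.28, 0.30 and 0.31. The translocon-associated genes trap-1 to trap-4 lay between -0.52 and 0.09. The list as a whole had 2 of 15 higher and a median of 0.75.

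Export and retrieval coats had 1 call in each list, with most members above 0. In COPII, the coat that buds from the ER, 18 of 20 genes were above 0 with a median of 0.97, yet ile-1 alone passed. The exchange factor sec-12 changed by 2.03 (limma adjusted p = 0.0874), sec-23 by 1.75 (limma adjusted p = 0.0616), sec-24.1 by 1.60 and the GTPase sar-1 by 0.96. Among COPI and Golgi genes, 19 of 22 were above 0 with a median of 0.60.

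The 1 rise on a used probe set in the COPI and Golgi list was warf-1, an Arf-family GTPase. Its signals were 5.86, 5.96 and 5.05 with vehicle and 8.98, 7.99 and 9.07 with tunicamycin, a rise of 3.06 (SE 0.41, limma adjusted p = 0.00236). The groups were separated by more than their own ranges. The related GTPase arf-6 changed by -0.06. The receptor erd-2.1, which returns escaped chaperones to the ER, rose by 1.77 on 1 probe set (SE 0.32, limma adjusted p = 0.0234) and changed by 1.91 without passing on the brighter one (limma adjusted p = 0.194). The call of the first did not pass in 5 of the 6 cases with 1 array left out (limma adjusted p 0.0702 to 0.106) or without the arrays numbered 2 (0.299). COPI subunits themselves changed by 0.58 to 1.09, none past the threshold. Without the arrays numbered 2, the counts of rises were 1 for the lectins, 0 for degradation, 1 for the signal peptidase and translocon, 0 for COPII, 1 for COPI and 1 for N-glycosylation.

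**Figure D3:**
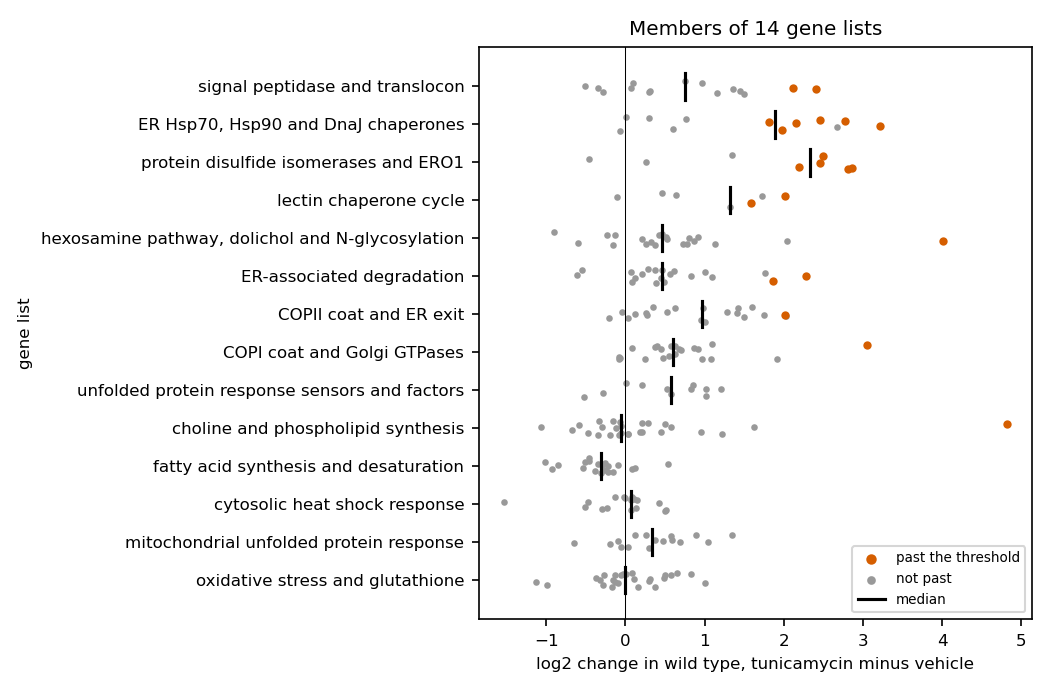
Log2 change with tunicamycin in wild-type larvae (x axis) for each member of 14 gene lists (y axis), 1 point per gene, with orange points past the threshold in limma and black bars at the list medians. The protein disulfide isomerase and chaperone lists have medians of 2.33 and 1.89, and the cytosolic heat shock, oxidative stress and fatty acid lists have no orange point.

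The sensors and factors that start the response did not pass at the level of their transcripts, apart from xbp-1 under some alternatives. The xbp-1 probe set used changed by 1.02 (95% interval 0.51 to 1.53, limma adjusted p = 0.111, and 0.0432 after quantile normalization) and its other probe set by 0.39. The sensor ire-1 changed by 0.83 (-0.25 to 1.91), pek-1 by 0.86 (-0.08 to 1.79) and atf-6 by 1.02 (-0.49 to 2.53). The factor atf-4, translated when PEK-1 is active, changed by -0.28 (-0.83 to 0.26). Of 11 genes in this list none passed, 9 were above 0 and the median was 0.57. The intervals of ire-1, pek-1 and atf-6 include both no change and more than a 3-fold rise, and these arrays do not tell spliced from unspliced xbp-1.

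The largest rise of any named gene lay outside the folding machinery. The choline kinase gene ckb-2, whose enzyme phosphorylates choline for phosphatidylcholine synthesis, had 5.58, 5.62 and 6.19 with vehicle and 10.65, 10.84 and 10.35 with tunicamycin. Every treated array lay more than 4 log2 units above every vehicle array, and the change was 4.82 (SE 0.34, limma adjusted p = 1.43e-05), or 28.2-fold. No other gene of choline and phospholipid synthesis passed in wild type. Another choline kinase gene, ckb-4, changed by 1.62 (95% interval 0.78 to 2.46, limma adjusted p = 0.14) and rose by 1.82 in mutants (limma adjusted p = 0.0404). In wild type pcyt-1, which acts after the kinases, changed by -0.09, the methyltransferases pmt-1 and pmt-2 by 0.21 and -0.59, and sams-1, which makes their methyl donor, by -1.07 (limma adjusted p = 0.342). The 27 genes of the list had 1 rise, 13 above 0 and a median of -0.05. Fatty acid synthesis and desaturation genes had no call, 3 of 20 above 0 and a median of -0.31.

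Genes for calcium binding and collagen modification in the ER gave further large rises. The prolyl 4-hydroxylase subunit dpy-18, which hydroxylates procollagen, had 6.57, 6.49 and 5.88 with vehicle and 10.15, 9.26 and 9.40 with tunicamycin, a rise of 3.29 (SE 0.39, limma adjusted p = 0.00098). Calumenin, calu-1, an ER calcium-binding protein, had 7.21, 6.73 and 7.56 and then 10.79, 10.10 and 10.46, a rise of 3.28 (SE 0.30, limma adjusted p = 0.000139). Both genes had further probe sets that moved the same way, 3.53 and 2.27 for dpy-18 and 2.44 for calu-1. The isomerase pdi-2 also serves as the other subunit of worm prolyl 4-hydroxylases. The second catalytic subunit phy-2 changed by 1.48 (limma adjusted p = 0.404) and the lysyl hydroxylase let-268 by 0.33.

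The substrates of these enzymes went the other way without passing. Of 126 cuticle collagen genes 15 were above 0 and none passed, with a median of -0.31 and a lowest change of -1.80 for col-41 (limma adjusted p = 0.0729). The calcium pump sca-1 and the release channels itr-1 and unc-68 changed by 0.17, 0.30 and 0.38. The hypodermis, which makes the cuticle, had log2 levels over its marker list of 7.74 to 8.11 with vehicle and 7.12 to 7.61 with tunicamycin. Of its markers 3 of 13 were above 0, with a median change of -0.39. Several of these markers are themselves collagens, and the part of this tissue in the collagen values was not tested.

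Outside all 43 lists lay 18 of the 41 genes. Y41C4A.32 had nearly constant vehicle signals of 6.81, 6.79 and 6.76 and then 10.17, 9.84 and 9.83, a rise of 3.16 (SE 0.30, limma adjusted p = 0.000142). F41B4.3 had 6.88, 6.65 and 6.95 and then 9.66, 8.98 and 10.20, a rise of 2.78 (SE 0.34, limma adjusted p = 0.00125). No overlap was seen in either gene.

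Among genes of lipid handling, the lipase-family gene lips-11 had 2.23, 2.12 and 2.92 with vehicle, all below the background limit, and 5.78, 4.41 and 5.61 with tunicamycin. It was therefore at least 3.81-fold higher, with the vehicle signals set at the limit (limma adjusted p = 0.00236). With 1 tunicamycin array left out, this bound was 3.18-fold to 5.12-fold. The microsomal triglyceride transfer protein gene dsc-4, which loads lipid onto lipoproteins, had 4.39, 5.13 and 5.30 and then 7.74, 8.17 and 6.49, a rise of 2.53 (SE 0.44, limma adjusted p = 0.0175). An ER membrane gene of lipid droplet formation, fitm-2, rose by 2.43 (SE 0.35). None of these genes is a member of the lipid synthesis lists.

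The zinc transporter gene zipt-7.1 had 3.66, 4.03 and 3.24 with vehicle and 6.60, 6.79 and 5.70 with tunicamycin, a rise of 2.72 (SE 0.42, limma adjusted p = 0.00754). From the serpin list, srp-7 had 6.96, 6.84 and 6.93 and then 9.86, 9.76 and 9.24, a rise of 2.71 (SE 0.28, limma adjusted p = 0.000339). In both genes all treated arrays lay above all vehicle arrays.

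The other rises outside the lists were trmt-10C.1 (2.24, at least 3.84-fold because its vehicle signals, from 2.98 to 3.15, were below the background limit), Y54G2A.18 (2.22), Y105E8A.2 (2.13), the RNA polymerase II subunit gene rpb-7 (2.02), Y41E3.8 (1.98), dct-18 (1.93), Y38F1A.1 (1.88), F21G4.5 (1.78), R12E2.13 (1.51) and Y76B12C.3 (1.39). The bound of trmt-10C.1 was 3.50-fold to 4.21-fold with 1 tunicamycin array left out.

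In 4 more higher probe sets no single gene could be named. The largest was 193200_s_at, for which the annotation used here lists no gene, with 5.52, 4.46 and 5.59 on the vehicle arrays and 10.48, 9.67 and 9.16 on the tunicamycin arrays. Its rise of 4.58 (SE 0.39, limma adjusted p = 9.6e-05), or 24.0-fold, lay between those of ckb-2 and gfat-1. The others were 192459_s_at (2.92), 191065_s_at (2.61) and 174732_s_at (2.13), and of these the first and second are annotated with several genes.

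Of the 43 genes past the threshold on their used probe set, 24 passed whichever of the 6 wild-type arrays was left out, and 19 did not pass in at least 1 case, with limma adjusted p from 0.0501 to 0.187 in those cases. The 19 were pdi-6, dnj-7, ile-1, ubxn-4, sec-11, spcs-1, stc-1, dsc-4, rpb-7, trmt-10C.1, dct-18, R12E2.13, F21G4.5, Y105E8A.2, Y38F1A.1, Y54G2A.18, Y76B12C.3, drd-1 and grl-7. The 24 include ckb-2, gfat-1, hsp-4, hsp-3, dpy-18, calu-1, warf-1 and 4 of the 5 isomerase genes.

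Other stress programmes had no gene past the threshold. In the cytosolic heat shock response 9 of 17 genes were above 0 with a median of 0.06, and the cytosolic chaperones hsp-1, hsp-90 and hsp-110 changed by 0.14, 0.06 and 0.07. Oxidative stress and glutathione genes had a median of -0.01, with gst-4, a common reporter of that response, at -0.99 (limma adjusted p = 0.622). Mitochondrial unfolded protein response genes had a median of 0.33, with hsp-6 at -0.10, hsp-60 at 0.57 and the protease lonp-1 at 1.35 (limma adjusted p = 0.194).

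Amino acid and one-carbon synthesis (median 0.04), autophagy (-0.01), tRNA synthetases (0.00) and 74 ribosomal protein genes (0.02) were centred near 0 with no call. Within the serpins, 1 of 4 genes rose and all 4 were above 0.

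The falls were few and less firmly measured. The gene drd-1 had 5.14, 7.28 and 5.74 with vehicle and 2.92, 2.87 and 2.40 with tunicamycin, all 3 below the background limit, so it was at least 6.58-fold lower (limma adjusted p = 0.013), or at least 4.30-fold without the high vehicle array numbered 2. Its fitted change was -3.32 (SE 0.55), and it was -2.71 without that vehicle array (limma adjusted p = 0.0473) and -3.16 without the tunicamycin array numbered 3 (limma adjusted p = 0.0672). The ground-like gene grl-7, of the hedgehog-related family and expressed in the hypodermis, had 8.30, 8.86 and 8.11 and then 6.30, 3.77 and 5.26. The vehicle arrays agreed closely and the treated ones spread widely below them, with a change of -3.31 (SE 0.59, limma adjusted p = 0.0202) on this probe set and -1.59 (limma adjusted p = 0.315) on the other. It did not pass in 5 of the 6 cases with 1 array left out, where the limma adjusted p was 0.0501 to 0.106. The change was -2.64 without the tunicamycin array numbered 2 and -3.91 without the one numbered 1. The hypodermis marker list, which includes grl-7, was lower as given above, and the part of that tissue in this fall was not tested.

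A pair of falls was on probe sets annotated with several genes, 186492_s_at (-2.03, SE 0.37) and 177131_s_at (-1.98, SE 0.38), whose vehicle means were 10.26 and 10.04. The last fall, on a probe set of the Golgi GTPase rab-6.1 that is not the one used for the gene, is described below with the mutants.

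Further down, the lowest genes among those bright with vehicle did not pass. ZK180.5 had 11.42, 11.08 and 11.11 and then 8.85, 8.91 and 8.87, a change of -2.33 (SE 0.49, limma adjusted p = 0.0616), but its other probe set changed by -0.11. For C41H7.2, pdk-1, cnp-2 and pigx-1 the changes were -2.21, -2.18, -2.14 and -1.92, and for K08B12.1, pcp-3 and nlp-26 -1.89, -1.87 and -1.86. Some of these genes, and some of the rises, have other probe sets beside the used one. In the 10 lowest genes 4 of 7 other probe sets had the same sign, 1 of them at least 2-fold, with a median of -0.04. In the 16 genes with the largest rise among those past the threshold, all 5 other probe sets rose at least 2-fold, with a median of 2.35. The genes were ranked by the used probe set, so some return toward 0 in the others is built into both values. The 16 rises had to pass the threshold, while most of the 10 lowest genes did not pass it. The values therefore do not show whether probe sets agree less among falls than among rises.

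Families of secreted and lysosomal proteins had no call other than grl-7, and their medians lay near or below 0. Of 51 hedgehog-related and ground-like genes 15 were above 0 with a median of -0.41. For 79 C-type lectins the median was -0.16 with 23 above 0, and for 41 lysosomal proteases, lipases and pump subunits it was -0.27 with 12 above 0, down to -1.84 for the lipase lipl-5 (limma adjusted p = 0.089). Lysozymes, saposins and antimicrobial peptides had 25 of 50 above 0 and a median of -0.01, and transthyretin-related genes had 17 of 32 above 0 and a median of 0.01. Intestine markers, from the tissue with much of this lysosomal expression, had log2 levels over the list of 6.62 to 6.69 with vehicle and 6.04 to 6.43 with tunicamycin. The intestinal protease asp-1 changed by -1.26 (limma adjusted p = 0.104). Pharynx markers went the other way, with 10 of 10 above 0, a median of 0.33 and list levels of 5.48 to 6.04 and 5.92 to 6.51, which overlap. Neuron markers had 3 of 14 above 0 and a median of -0.23. The part of these tissues in the families' values was not tested.

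Set beside the manf-1 mutants, which have their own vehicle and tunicamycin arrays, the wild-type rises were largely shared. In mutants 97 probe sets were higher (0.659%) and 61 were lower (0.415%). Of the 53 probe sets higher in wild type 48 were also called higher in mutants, which is 90.6% of the wild-type list and 49.5% of the mutants' list. The median change of the 53 was 2.35 in wild type and 2.33 in mutants, and 34 of them changed more in mutants. The rises of hsp-4 and hsp-3 were 3.57 and 2.06 in mutants, that of gfat-1 was 4.52 and that of ckb-2 was 3.89.

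The mutants' 61 lower probe sets had a median change of -1.90 there and -0.55 in wild type, where 58 of them were below 0, or 95.1% against 52.4% of all probe sets. Their longer list of falls was therefore mostly of the same sign in wild type, where 3 of the 61 were called lower. These are 3 of the 5 falls called in wild type. The 97 higher probe sets had medians of 2.21 in mutants and 1.81 in wild type, with 95 above 0 in wild type.

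The difference between the responses was itself tested as an interaction. At an unadjusted p under 0.05, which a share of 0.05 would meet with no difference, there were 679 probe sets. After adjustment 1 probe set of 14709 (0.0068%) passed in limma. It was 190167_s_at of rab-6.1, a Rab GTPase of Golgi traffic. In wild type it had 5.70, 6.41 and 5.84 with vehicle and 3.94, 3.96 and 4.10 with tunicamycin, a change of -1.98 (SE 0.33, limma adjusted p = 0.012). In mutants it changed by 1.75 (limma adjusted p = 0.0177), and the responses differed by 3.73 (limma adjusted p = 0.0177). The other probe sets of the gene changed by 0.87 and 0.44 in wild type, neither past the threshold, so the fall rests on 1 of 3 probe sets. The fall did not pass without the tunicamycin array numbered 1 (limma adjusted p = 0.0521) or the vehicle array numbered 2 (0.063). Nor did the fall pass without the 4 arrays numbered 2 (limma adjusted p = 0.225). With the 6 wild-type arrays alone the limma adjusted p was 0.163, and 0.3 when these also had the replicate block. The interaction did not pass in 9 of the 12 cases with 1 array left out (3.52 to 3.87 over the 12, limma adjusted p 0.0309 to 0.0988) or without the arrays numbered 2 (3.54, limma adjusted p = 0.616).

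Rises called in wild type and not in mutants were F21G4.5 (-0.98 in mutants), trmt-10C.1 (0.13), Y38F1A.1 (0.56), dct-18 (1.37) and stc-1 (1.47). None of their interactions passed, and the nearest was F21G4.5, with an interaction of -2.76 (limma adjusted p = 0.235). In the other direction Y41C4A.32 changed by 5.82 in mutants against 3.16 in wild type, an interaction of 2.66 (limma adjusted p = 0.0974), and warf-1 by 5.27 against 3.06.

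**Figure D4:**
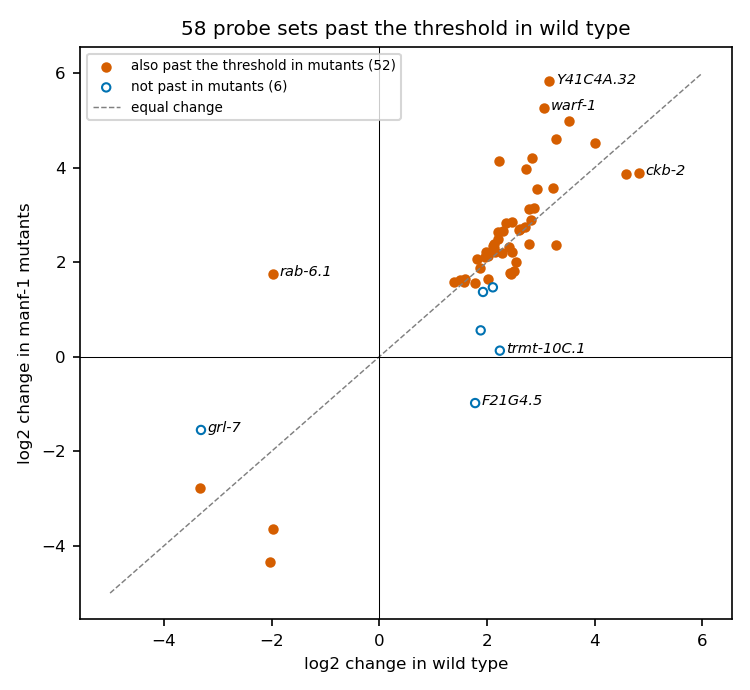
Log2 change with tunicamycin in manf-1 mutants (y axis) against that in wild type (x axis) for the 58 probe sets past the threshold in wild type, filled where the probe set also passed in mutants and open where it did not, with the line of equal change dashed. Most points lie near the line, while rab-6.1, at -1.98 in wild type and 1.75 in mutants, stands alone in the upper left.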

How the data were processed

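Trizol RNA from whole larvae (6 ug) was made into biotin-labelled cRNA and hybridised to 1-colour Affymetrix arrays, per the labels' protocols. The values used are log2 signals deposited by the authors for 22625 probe sets. MAS5 appears in the submitters' processing notes, with neither version nor role, and the scale was read from the values. The normalization and background correction are not given in the sources used here. Array medians between 3.957 and 4.052 show that arrays had been scaled, which assumes that most transcripts keep their level. Detection calls are not part of the table used here, and precision is limited by the number of arrays.

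The 77 control probe sets were left out, and 14709 others were kept that, on 3 or more arrays, exceeded that array's 40th percentile. By the platform annotation 13689 have 1 gene, 481 several and 539 none listed, and 13649 gene numbers matched RefSeq genes (WBcel235). Probe sets with several genes were left unnamed. For 2332 genes with more than 1 kept probe set, the one with the highest mean was used. The level of manf-1, for which the annotation names no probe set, was not analysed here. Promoter sequences were not used here.

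The means of all 4 groups were fitted to 12 arrays with limma 3.58.1 in R 4.3.3 (eBayes with a mean-variance trend, 8 residual and 5.93 prior degrees of freedom), and the contrasts were tested two-sided with Benjamini-Hochberg adjustment over 14709 probe sets at 0.05. The script was tested on simulated data. Errors are limma's SE. A group with all 3 arrays below the background limit gives a bound, with the limit in place of its signals.

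Members and lists were chosen with earlier results of these data known. The rule for named genes took every gene past the threshold, the 10 lowest genes with a vehicle mean above 6, up to 3 members of each list by p, hsp-3, hsp-4 and the sensors, and up to 5 genes by interaction p. Further list members are named to describe a list and were chosen after their values were seen. Alternatives were quantile normalization, centring on medians, no filter, a 60th percentile filter, an offset of 9.64 before log2, no trend, the 6 wild-type arrays alone, the replicate number as a block and each array left out. Leaving out the 4 arrays numbered 2 was added after seeing the data.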

Additional observations from a re-analysis of the deposited data

Results flagged for a closer look

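The response of rab-6.1 on probe set 190167_s_at differed between genotypes by the interaction test, with a mutant minus wild-type difference of 3.73 on the log2 scale (limma adjusted p = 0.0177). The call was lost in 9 of 12 fits with 1 array left out and without the arrays numbered 2, and its other probe sets showed no such call.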

How the results depend on the processing

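The number of probe sets higher in wild type, 53, stayed within 1.5 times under quantile normalization (64), centring (51), no filter (50), the 60th percentile filter (68), the offset (52), no trend (49) and the replicate block (59). It was 19 with the 6 wild-type arrays alone, 15 when these also had the replicate block, 34 without the arrays numbered 2, and 37 to 48 with 1 array left out, the lowest without the vehicle array numbered 2. The 5 lower probe sets became 8 under quantile normalization, 10 with the 60th percentile filter, 3 without the trend, 1 with the 6 wild-type arrays alone, with and without the replicate block, 1 without the arrays numbered 2, and 2 to 10 with 1 array left out. The lowest of these came without the tunicamycin array numbered 2 and the highest without the vehicle array numbered 3. The single interaction became 2 with the replicate block, 0 without the arrays numbered 2, and 0 to 2 with 1 array left out, where that of rab-6.1 was lost in 9 of 12 fits. The causes were not tested, beyond the fewer arrays that some of these fits hold. The genes called under all 16 alternatives were F41B4.3, Y41C4A.32, Y41E3.8, calu-1, ckb-2, dpy-18, hsp-3, hsp-4, pdi-1, pdi-2 and srp-7, 11 of 43. Only part of the tested genes was followed by name through the alternatives. Of that part, those that missed the threshold but passed under at least 1 alternative were xbp-1 (limma adjusted p = 0.0155 with the replicate block), algn-7, spcs-3, sec-12, sec-23, ZK180.5, asp-1, col-41, lipl-5, nlp-26 and pcp-3. Some genes outside that part also passed under an alternative. The deviations of same-numbered wild-type arrays correlated at 0.03, 0.13 and 0.01, and the main fit did not treat the numbers as pairs. The arrays numbered 2 stood apart: their 6 pairs correlated at 0.05 to 0.23, and all 24 pairs of one of them with an array of another number were below 0 (-0.22 to -0.01). Deviations within a group sum to 0 by construction, so the negative pairs follow in part from the positive ones. The labels do not say what the numbers mark.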

Other observations

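In the RefSeq gene order of assembly WBcel235, sec-11 and rpb-7 are neighbours, the 1 such pair among the genes called in wild type. They rose by 2.41 and 2.02. The pair was looked for after their values were seen, and no test was made.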
